A study of Homo sapiens with 12 samples.

Results

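The genes described here are the 44 that the deposited expression table assigns to the KEGG pathway for aminoacyl-tRNA biosynthesis, out of 20332 genes in that table. Aminoacyl-tRNA synthetases are the enzymes that join each amino acid to its tRNA, so that the ribosome can read the genetic code. The cytosol and the mitochondrion each need a set of charged tRNAs; most mitochondrial synthetases are encoded by separate nuclear genes whose symbols end in 2, and their products are imported to serve the translation of the respiratory chain subunits made inside mitochondria. When charged tRNA runs short, uncharged tRNA activates the kinase GCN2, and the transcription factor ATF4 that this pathway raises is known to act on many cytosolic synthetase genes. The 44 genes fall into 21 cytosolic synthetases, 17 mitochondrial synthetases, 4 genes for accessory steps of mitochondrial charging (QRSL1, GATB and GATC, subunits of the enzyme that makes glutaminyl-tRNA from glutamyl-tRNA, and MTFMT, which formylates the initiator methionyl-tRNA) and 2 genes for selenocysteine-tRNA (PSTK and SEPSECS). GARS1 and KARS1, counted as cytosolic, are single genes known to supply both compartments. Of the cytosolic enzymes, 8 belong to the multi-tRNA synthetase complex, a large cytosolic assembly held together by scaffold proteins. All 44 genes are annotated as protein-coding.

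Transcripts were measured by bulk RNA sequencing in 2 human cell lines of endometrial cancer, Ishikawa and KLE. Each line was kept without added copper, which the labels call both untreated and vehicle, or in 200 µM CuCl2, a copper salt, for 24 h. Each of the 4 groups held 3 independent biological replicates grown in the same medium, 12 libraries in all, so the p-values measure the spread between the replicates of each line. In bulk libraries fewer cells of a type and less RNA per cell cannot be told apart.

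The libraries held 14050275 to 25057003 counts, of which the 44 genes took 0.582 to 0.652%. Untreated Ishikawa replicate 2 was the deepest and stood apart from its group. Between it and the other untreated Ishikawa libraries the chi-square per degree of freedom was 8.45 and 12.9, against 2.05 to 3.95 in the other replicate pairs of the 4 groups. The 5 epithelial and Müllerian markers EPCAM, CDH1, KRT8, KRT18 and PAX8 were high in every library, with a summed level of 3310 to 3690 TPM in untreated and 2270 to 2360 TPM in treated Ishikawa cells, and 4550 to 4780 and 5200 to 5270 TPM in KLE cells. TPM is a transcript level scaled to transcript length and library size. The receptors ESR1 and PGR together reached at most 0.576 TPM. The 6 fibroblast markers summed to 6.7 to 48 TPM over all libraries, with DCN, LUM and POSTN at 0 in untreated Ishikawa replicate 2. The 3 endothelial markers summed to 1.31 to 3.56 TPM. The 4 leukocyte markers summed to 6.75 to 7.85 and 8.23 to 11.7 TPM in untreated and treated Ishikawa cells, and to 18.5 to 22.9 and 28.1 to 36.1 TPM in KLE cells, most of it CD68, with CD3E at 0 in some libraries. The part of these markers in the results was not tested.

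Copper split the charging genes of Ishikawa cells by compartment. Transcripts of most cytosolic synthetases rose and those of most mitochondrial synthetases fell, while in KLE cells the same classes moved less. In Ishikawa cells 18 of the 44 genes rose and 18 fell (edgeR quasi-likelihood test, Benjamini-Hochberg adjusted p under 0.05). Among all 13359 genes tested, 33.8% rose and 35.3% fell, 69.1% in all, so a high share of calls was common to genes at large. The classes divided these calls: of the 21 cytosolic synthetases 14 rose, 5 fell and 2 were not called, with a median log2 fold change of 0.37. Of the 17 mitochondrial synthetases 2 rose, 11 fell and 4 were not called, with a median of -0.36. The median of all genes tested was -0.01. When library totals replaced the TMM factors, the median of all genes shifted to -0.17 and 13 members rose while 23 fell. Under that scaling the cytosolic count was 12 rising and 7 falling and the mitochondrial count 1 rising and 13 falling. Library totals ended the calls of FARSB, GATC, LARS1, PSTK and WARS2 and added falls of CARS2, FARSA, GATB, KARS1 and SARS2, and limma on TPM also ended the rises of MARS1 (0.26) and TARS1 (0.18). The gap between the 2 class medians was 0.73. A change of scaling shifts all genes nearly alike and cannot move this gap, which lay between 0.71 and 0.78 with libraries left out and the other alternatives.

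**Figure D1:**
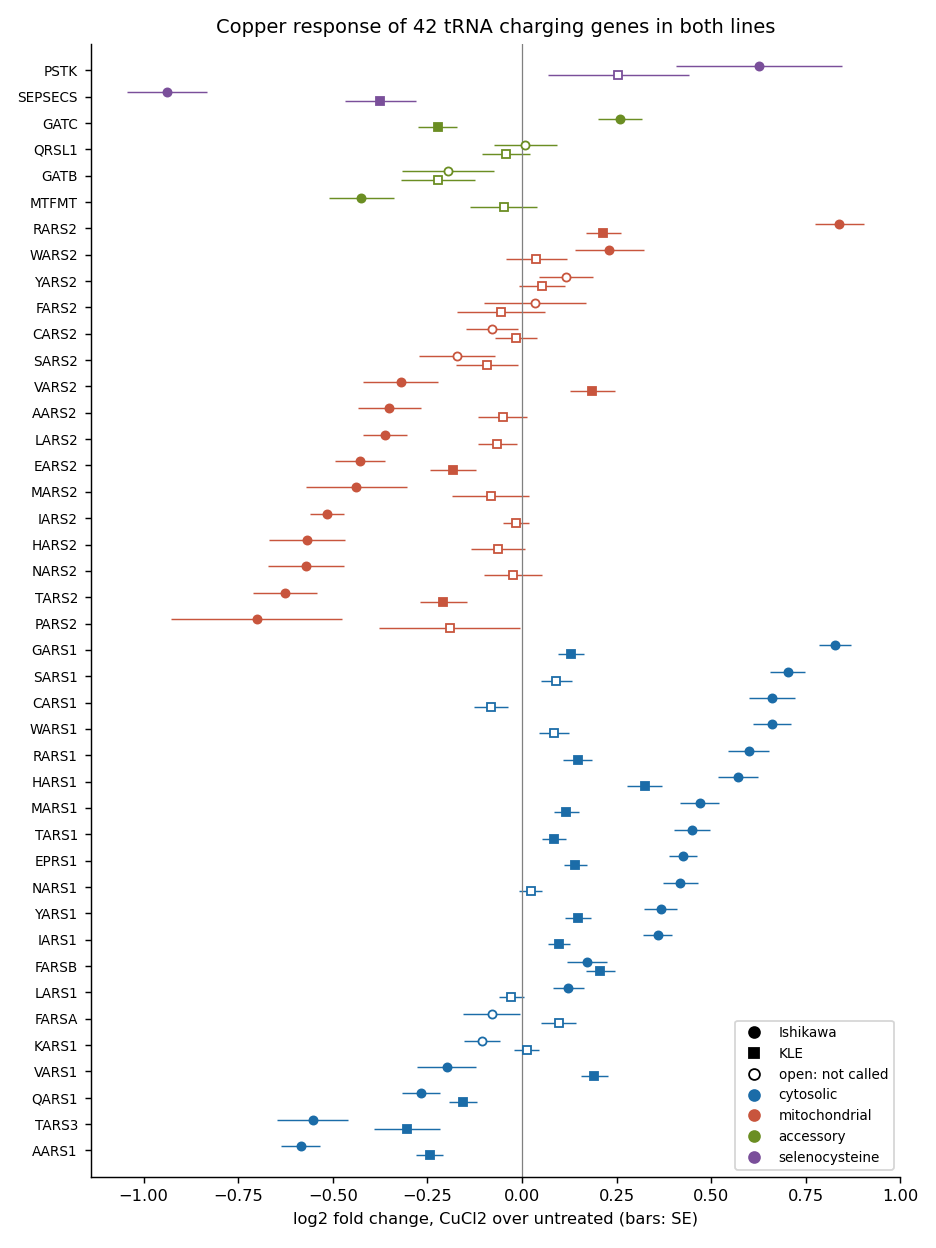
Log2 fold change with copper of 42 of the 44 genes (x axis), with its SE as a bar, in Ishikawa (circles) and KLE cells (squares), fitted on 3 untreated and 3 treated libraries per line. Filled symbols passed the adjusted p threshold of 0.05. Most cytosolic genes (blue) lie right of 0 and most mitochondrial genes (red) left of it in Ishikawa cells, while the KLE values lie between -0.38 and 0.32.

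In summed level the 21 cytosolic genes stood at 3533, 3617 and 3500 TPM in the untreated Ishikawa libraries and at 3922, 3915 and 3992 TPM in the treated ones. The 17 mitochondrial genes summed to 632, 664 and 619 TPM without copper and to 509.9, 513 and 512 TPM with it. In both sums the treated libraries lay clear of the untreated ones, above them for the cytosolic genes and below them for the mitochondrial genes. The ratio of the cytosolic to the mitochondrial sum went from 5.57 ± 0.106 to 7.71 ± 0.0822 (SD, n = 3). In KLE cells the ratio was 6.35 ± 0.163 without copper and 6.71 ± 0.272 with it. The lowest untreated KLE ratio was 6.23 and the highest 6.54, and the treated libraries gave 6.55, 7.02 and 6.56, so the lowest treated value lay just above the highest untreated one. No test was made on these sums, since they combine genes of very different levels.

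**Figure D2:**
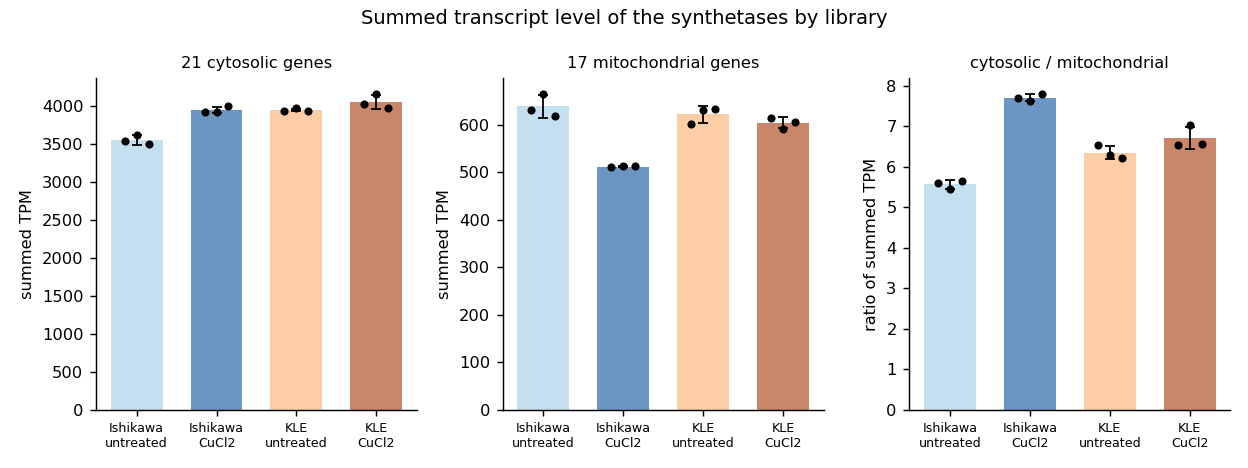
Summed TPM of the 21 cytosolic and the 17 mitochondrial synthetases and the ratio of these sums, for each library (points), with the group mean (bars) and SD of 3 libraries. In Ishikawa cells the treated cytosolic sums lie above and the treated mitochondrial sums below the untreated ones, so that the ratio moves from 5.57 to 7.71.

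Promoter sequences show where these genes carry 2 short motifs of stress-response factors, and they are printed for 3 cytosolic genes with the ATF4-type motif and for RARS2, the mitochondrial gene that rose most. Windows of 300 bases around the annotated start were taken from RefSeq (GRCh38.p14), and 34 of the 44 members matched an entry; those without one included AARS2, LARS1, MTFMT, SEPSECS, TARS3, VARS1, VARS2 and YARS1. The motifs were TGATGNAA, the core of the C/EBP-ATF response element that ATF4 is known to bind, and TGACNNNGC, the core of the antioxidant response element bound by NRF2. Both were searched on both strands, and no matches overlapped each other. Capitals mark the matches: on the printed strand the C/EBP-ATF core appears as its reverse complement in AARS1, CARS1 and TARS1, the antioxidant core as its reverse complement in TARS1 and directly in RARS2.
AARS1: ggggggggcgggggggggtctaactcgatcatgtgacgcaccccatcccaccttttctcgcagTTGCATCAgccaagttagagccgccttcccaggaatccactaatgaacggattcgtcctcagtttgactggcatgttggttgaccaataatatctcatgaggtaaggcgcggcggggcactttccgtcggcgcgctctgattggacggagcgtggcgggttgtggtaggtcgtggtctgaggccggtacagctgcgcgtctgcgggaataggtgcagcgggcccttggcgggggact
CARS1: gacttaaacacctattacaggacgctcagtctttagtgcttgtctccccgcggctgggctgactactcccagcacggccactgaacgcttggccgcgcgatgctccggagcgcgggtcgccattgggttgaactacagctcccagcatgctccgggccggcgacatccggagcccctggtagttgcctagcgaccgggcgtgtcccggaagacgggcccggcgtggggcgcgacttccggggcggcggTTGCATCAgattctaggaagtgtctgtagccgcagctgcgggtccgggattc
TARS1: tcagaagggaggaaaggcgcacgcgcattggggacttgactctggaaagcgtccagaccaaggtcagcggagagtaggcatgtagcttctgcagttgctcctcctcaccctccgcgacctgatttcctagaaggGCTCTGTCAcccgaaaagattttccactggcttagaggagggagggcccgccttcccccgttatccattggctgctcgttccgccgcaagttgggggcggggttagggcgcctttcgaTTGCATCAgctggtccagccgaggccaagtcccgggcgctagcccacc
RARS2: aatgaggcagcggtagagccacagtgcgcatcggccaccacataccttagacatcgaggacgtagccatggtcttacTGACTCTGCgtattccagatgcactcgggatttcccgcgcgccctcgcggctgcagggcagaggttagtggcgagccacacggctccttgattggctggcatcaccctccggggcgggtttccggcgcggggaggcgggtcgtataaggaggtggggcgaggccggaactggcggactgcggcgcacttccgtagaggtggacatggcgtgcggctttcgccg
The windows are chr16:70289457-70289756 on the minus strand for AARS1, chr11:3057374-3057673 on the minus strand for CARS1, chr5:33440715-33441014 on the plus strand for TARS1 and chr6:87589938-87590237 on the minus strand for RARS2.

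The C/EBP-ATF core begins 187 bases before the start of AARS1. In CARS1 it begins 2 bases before the start, and in TARS1 2 bases after it. It was found in 6 of the 16 cytosolic synthetase promoters (37.5%), those of AARS1, CARS1, IARS1, MARS1, NARS1 and TARS1, in 1 of 14 mitochondrial ones (7.14%, YARS2), and in 3.67% of all 27305 promoters of the table. In Ishikawa cells 5 of these 6 cytosolic genes rose with copper, by log2 fold changes from 0.36 for IARS1 to 0.66 for CARS1. AARS1, the sixth, fell by 0.59. Of the 10 cytosolic genes whose window lacked the core, 7 rose, 1 fell and 2 were not called, GARS1 and SARS1 among those that rose. The median log2 fold change was 0.43 with the core and 0.50 without it. Among all genes tested in Ishikawa cells 33.8% rose and 35.3% fell. In KLE cells IARS1, MARS1 and TARS1 rose by 0.10, 0.12 and 0.09, CARS1 and NARS1 were not called, and AARS1 fell by 0.24. There 25.6% of all genes tested rose and 25.2% fell. The 3 KLE rises were lost with upper-quartile factors (0.06, 0.07 and 0.04), where CARS1 was called lower. The antioxidant core was found in 3 of 16 cytosolic promoters (18.8%: KARS1, TARS1 and WARS1), 2 of 14 mitochondrial ones (14.3%: NARS2 and RARS2) and 13.6% of all promoters. RARS2 rose in both lines, whereas NARS2 fell in Ishikawa cells and was not called in KLE cells. A match is a description of letters, and binding was not measured.

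Among the cytosolic enzymes outside the complex, 9 of 13 rose with copper in Ishikawa cells, 3 fell and 1 was not called. Their median log2 fold change was 0.42. The shares of all genes tested that rose and fell in this line were 33.8% and 35.3%. CPM (counts scaled to library size with the TMM factors of all 12 libraries) are given for single libraries, while fold changes come from the 6 libraries of a line. A ratio of mean CPM therefore differs slightly from the fitted fold. GARS1, the glycyl-tRNA synthetase of both compartments, stood at 271, 261 and 268 CPM in untreated Ishikawa libraries and at 444, 467 and 451 CPM in treated ones. All treated libraries were above all untreated ones, and the fitted rise was 1.77-fold (log2 0.83 ± 0.04 SE, adjusted p = 3.03e-10). In KLE cells GARS1 went from 352, 335 and 343 CPM to 356, 391 and 379 CPM, a rise of 0.13 ± 0.03 on the log2 scale (adjusted p = 0.00152).

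SARS1, which charges tRNA with serine and whose product also starts the path to selenocysteine-tRNA, went from 128, 132 and 129.8 CPM to 205, 207 and 198 CPM in Ishikawa cells. The groups lay far apart, with a 1.63-fold rise (log2 0.70 ± 0.05, adjusted p = 4.61e-09). In KLE cells the SARS1 libraries overlapped, at 163, 151 and 158 CPM without and 161, 176 and 166 CPM with copper, and the value of 0.09 ± 0.04 was not called (adjusted p = 0.0521). WARS1, the tryptophanyl enzyme also known as an interferon-induced gene, had 119.8, 115 and 119 CPM in untreated and 172, 186 and 181 CPM in treated Ishikawa cells. It rose 1.58-fold (log2 0.66 ± 0.05, adjusted p = 1.59e-08), and its KLE libraries, at 161, 148 and 154 against 155, 167 and 169 CPM, overlapped.

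CARS1, the cysteinyl enzyme, showed the widest gap between the lines. Its untreated Ishikawa libraries held 81.1, 91.4 and 79.1 CPM and the treated ones 126, 132 and 126 CPM, a 1.58-fold rise (log2 0.66 ± 0.06, adjusted p = 1.97e-07). The KLE libraries stood at 135, 130.5 and 142 CPM without copper and at 118, 132 and 135 CPM with it, and the value of -0.08 ± 0.05 was not called. The untreated KLE level was thus already near the treated Ishikawa level. TARS1, the threonyl enzyme, went from 321, 294 and 326 to 399, 422 and 413 CPM in Ishikawa cells (log2 0.45 ± 0.05) and from 444, 431 and 442 to 451, 478 and 469 CPM in KLE cells. The small KLE rise of TARS1 (0.09 ± 0.03, adjusted p = 0.022) was lost without untreated replicate 2, treated replicate 2 or treated replicate 3, with values of 0.07 to 0.08.

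HARS1, the histidyl enzyme, had the largest rise of the 44 genes in KLE cells. It went from 77.5, 75.8 and 78.9 CPM to 98.5, 98.9 and 92.7 CPM there, with no overlap and a 1.25-fold rise (log2 0.32 ± 0.05, adjusted p = 1.47e-07). In Ishikawa cells it went from 81.2, 76.1 and 80.5 CPM to 113, 112 and 114 CPM, a 1.49-fold rise. YARS1, the tyrosyl enzyme, rose in both lines, from 207, 203 and 200.8 to 254, 256 and 247 CPM in Ishikawa cells and from 262, 245 and 262 to 283, 285 and 285 CPM in KLE cells (log2 0.37 ± 0.04 and 0.15 ± 0.03). NARS1, the asparaginyl enzyme and the highest of the 44 genes per transcript length at 365 TPM in untreated Ishikawa cells, rose by 0.42 in Ishikawa cells on the log2 scale. It was not called in KLE cells (0.02).

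The phenylalanyl enzyme is built from the products of FARSA and FARSB, of which FARSB was called and FARSA was not. FARSB stood at 128, 120.1 and 130.5 CPM without copper and 138, 131 and 140.3 CPM with it in Ishikawa cells, and at 130.4, 132 and 134.5 against 155, 153 and 149 CPM in KLE cells. It rose by 0.17 ± 0.05 and 0.21 ± 0.04 on the log2 scale, the only cytosolic gene whose KLE value was the larger among those called higher in both lines. The Ishikawa value of FARSB was 0.02 with library totals, no longer called, and -0.01 with limma on TPM. The FARSA values were -0.08 and 0.10.

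The cytosolic genes outside the complex that fell in Ishikawa cells were AARS1, TARS3 and VARS1. AARS1, the alanyl enzyme, stood at 253, 270.4 and 247 CPM without and 169, 158 and 168 CPM with copper. No library overlapped, and the transcript fell to 0.667 of its level (log2 -0.59 ± 0.05, adjusted p = 9.69e-08). It also fell in KLE cells, from 268, 268 and 270.1 CPM to 222, 239 and 219 CPM (log2 -0.24 ± 0.04, adjusted p = 2.25e-07). TARS3, a paralogue of TARS1 with 14.3 TPM against 266 TPM for TARS1 in untreated Ishikawa cells, went from 20.5, 20.03 and 20.4 to 12.1, 14 and 13.8 CPM there and from 18.1, 19.9 and 20.6 to 15.1, 16.3 and 16.2 CPM in KLE cells. It fell in both lines (log2 -0.55 ± 0.09 and -0.30 ± 0.09). How reads that match both paralogues were counted is not given, so its values are uncertain to that extent.

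VARS1, the valyl enzyme, moved in opposite directions. In Ishikawa cells it went from 160.3, 192 and 151 CPM to 143, 142 and 137 CPM, a fall (log2 -0.20 ± 0.08, adjusted p = 0.0386). In KLE cells it went from 189, 199 and 199 CPM to 229, 220.1 and 221 CPM, a rise of 0.19 ± 0.04 (adjusted p = 1.93e-05). The Ishikawa fall leaned on untreated replicate 2, the highest library: without it the value was -0.10 and not called. The call was also lost without treated replicate 1, 2 or 3, at -0.18 to -0.21.

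In the multi-tRNA synthetase complex 5 of the 8 enzymes rose in Ishikawa cells, 2 fell and 1 was not called, with a median of 0.24. In KLE cells 4 rose, 1 fell and 3 were not called, with a median of 0.06. For all genes tested the shares were 33.8% rising and 35.3% falling in Ishikawa cells, and 25.6% and 25.2% in KLE cells. RARS1, the arginyl enzyme, rose from 131, 118 and 132 CPM to 192, 179 and 183 CPM in Ishikawa cells (log2 0.60 ± 0.05). MARS1, EPRS1 (a fused glutamyl and prolyl enzyme), IARS1 and LARS1, for methionine, glutamate with proline, isoleucine and leucine, rose by 0.47, 0.43, 0.36 and 0.12. The LARS1 rise was the least firm: it turned to -0.03 with library totals and was lost without untreated replicate 1, treated replicate 1 or treated replicate 3 (0.11 to 0.13). KARS1, the lysyl enzyme, was not called (-0.11, adjusted p = 0.0586). MARS1 shares 355 exonic bases with DDIT3 on the opposite strand, and as the strand setting of the libraries is not given, reads from such shared stretches cannot be told apart.

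QARS1, the glutaminyl enzyme of the same complex, fell in both lines, from 226, 245 and 222 to 188, 185 and 181 CPM in Ishikawa cells and from 190.4, 193 and 194 to 171, 172 and 176 CPM in KLE cells (log2 -0.27 ± 0.05 and -0.16 ± 0.04). The 3 scaffold genes of the complex differed too. In Ishikawa cells AIMP1 had a value of 0.23, AIMP2 fell by 0.44 on the log2 scale and EEF1E1 was not called (0.13), and in KLE cells the values of the same genes, 0.07, 0.04 and 0.12, were not called. AIMP1 passed the test in Ishikawa cells, but not with library totals (0.07), and its mean level was 138 TPM without and 136 TPM with copper.

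Among the 17 mitochondrial synthetases RARS2, for arginine, was the clearest exception to the fall. It stood at 74.2, 63 and 73.5 CPM in untreated and 120.5, 119 and 121 CPM in treated Ishikawa cells. The treated libraries lay well above all untreated ones, with a 1.79-fold rise (log2 0.84 ± 0.06, adjusted p = 2.21e-08), the largest of the 44 genes in this line. In KLE cells it went from 81.9, 76.6 and 77.8 to 89.1, 90.2 and 94.8 CPM, also without overlap, and rose 1.16-fold (log2 0.22 ± 0.05, adjusted p = 1.67e-04). WARS2, for tryptophan, was the other mitochondrial enzyme called higher in Ishikawa cells, from 15.3, 16 and 15.4 to 16.9, 17.3 and 18.7 CPM (log2 0.23 ± 0.09, adjusted p = 0.0352). This call was lost without untreated replicate 1 or 3 or any treated replicate, with values of 0.19 to 0.26, which leaves RARS2 as the only one called higher in those fits.

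**Figure D3:**
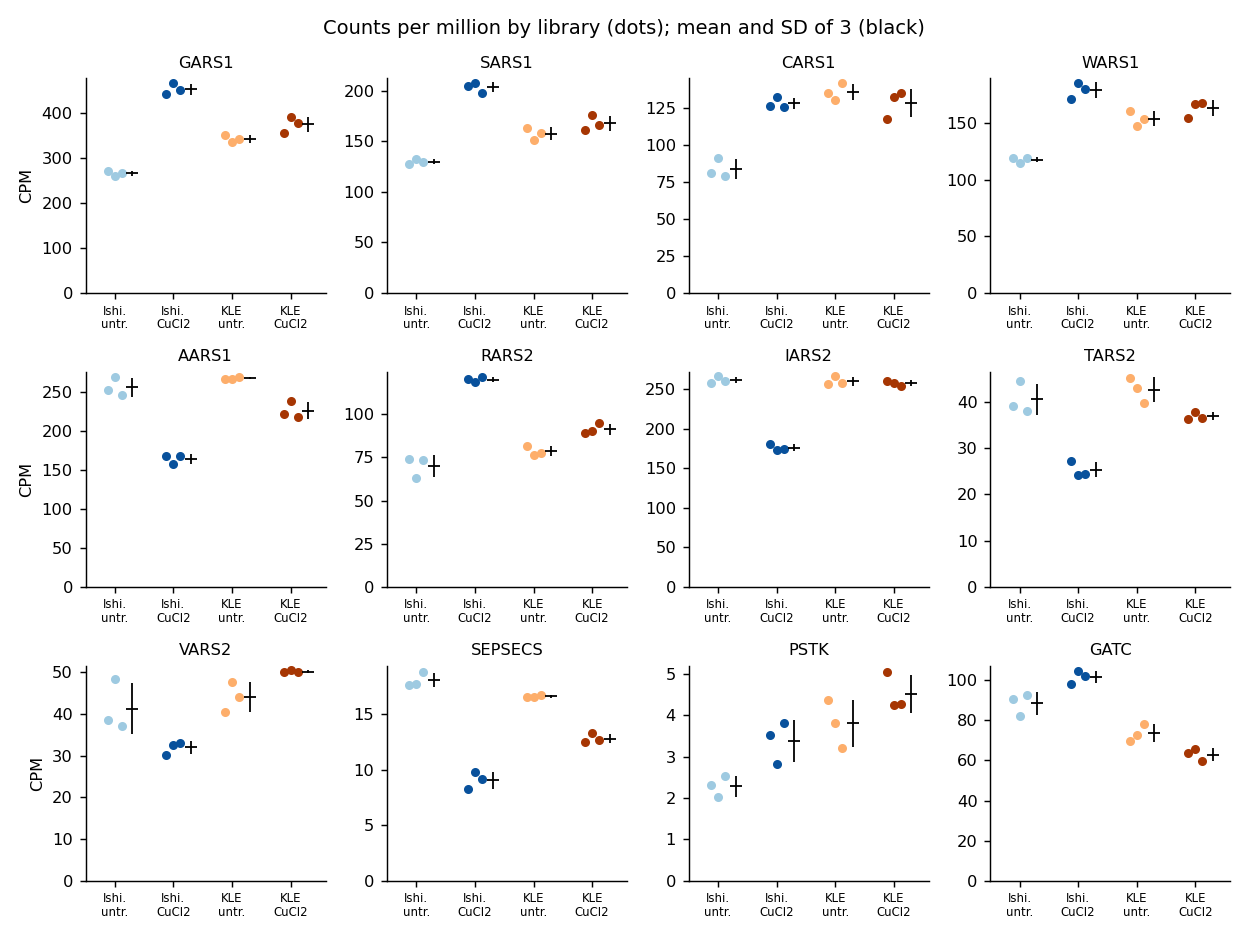
CPM (y axes, each starting at 0) of 12 of the genes in every library (dots) of the 4 groups, with mean and SD of 3 libraries in black. GARS1, SARS1, CARS1 and WARS1 rise and IARS2, TARS2 and SEPSECS fall most clearly in Ishikawa cells, RARS2 rises and AARS1 falls in both lines, and GATC and VARS2 move in opposite directions in the 2 lines.

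The 11 mitochondrial synthetases that fell in Ishikawa cells ran from the highest to the lowest expressed of the class. IARS2, for isoleucine, is the highest of the class per transcript length (157 TPM in untreated Ishikawa cells) and is named for that reason, after its values were seen. It went from 258, 266 and 261 to 181, 173 and 174 CPM, a fall to 0.7 of its level (log2 -0.52 ± 0.05, adjusted p = 1.02e-07), while in KLE cells it stood at 256, 267 and 258 against 261, 258 and 254 CPM and was not called (-0.02). TARS2, for threonine, went from 39.2, 44.4 and 37.9 to 27.1, 24.3 and 24.5 CPM in Ishikawa cells and from 45.2, 42.9 and 39.8 to 36.3, 37.8 and 36.4 CPM in KLE cells. It fell in both lines without overlap (log2 -0.63 ± 0.09 and -0.21 ± 0.06, adjusted p = 1.18e-05 and 0.00511).

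NARS2, for asparagine, and HARS2, for histidine, fell by nearly the same amount in Ishikawa cells. NARS2 went from 25.4, 28 and 28 to 15, 18.6 and 19.3 CPM (log2 -0.57 ± 0.10, adjusted p = 1.41e-04) and HARS2 from 24.6, 27.9 and 29.4 to 19.8, 16.2 and 17.1 CPM (log2 -0.57 ± 0.10, adjusted p = 1.42e-04). In KLE cells neither was called, and their libraries overlapped: NARS2 had 23.3, 23.4 and 23.2 CPM without and 24.8, 22.1 and 21.6 CPM with copper, and HARS2 had 26.1, 28.2 and 25.6 against 24.7, 25.6 and 26.1 CPM. HARS2 and HARS1 lie head to head on chromosome 5 and share 437 exonic bases on opposite strands, and in Ishikawa cells HARS1 rose where HARS2 fell. EARS2, for glutamate, went from 49.9, 48.1 and 47 to 34.8, 33.3 and 35.5 CPM in Ishikawa cells and from 42.9, 44.6 and 47.1 to 38.5, 40.4 and 39.8 CPM in KLE cells (log2 -0.43 ± 0.07 and -0.18 ± 0.06). The KLE fall of EARS2 was lost without untreated replicate 3 (-0.15).

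PARS2, for proline, had the largest fitted fall of the class but the fewest counts. It stood at 5.14, 3.52 and 6.33 CPM without copper and 2.51, 3.29 and 2.93 CPM with it in Ishikawa cells, at most a narrow gap between the groups (log2 -0.70 ± 0.23, adjusted p = 0.0126). The call was lost without untreated replicate 3 (-0.50) or treated replicate 1 (-0.60). LARS2, for leucine, fell in Ishikawa cells from 73.5, 73.9 and 70.6 to 54.6, 54.3 and 54 CPM (log2 -0.36 ± 0.06). MARS2, AARS2 and VARS2, for methionine, alanine and valine, fell too, with log2 fold changes of -0.44, -0.35 and -0.32. The MARS2 fall was -0.29 and not called without treated replicate 1. SARS2, CARS2, FARS2 and YARS2 were not called in either line, with values from -0.17 to 0.12 in Ishikawa cells. SARS2 shares 46.2% of its exonic bases with a same-strand readthrough gene, so its counts depend on how reads were shared out.

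In KLE cells the mitochondrial class stayed near the median of all genes. Of its 17 genes 2 rose, 2 fell and 13 were not called, with a median of -0.06 against 0.00 for all genes tested. VARS2 was the second that rose. It went from 38.5, 48.2 and 37 to 30.2, 32.6 and 33.1 CPM in Ishikawa cells, a fall (log2 -0.32 ± 0.10, adjusted p = 0.00905), and from 40.5, 47.5 and 43.9 to 50, 50.4 and 50 CPM in KLE cells, a rise (log2 0.19 ± 0.06, adjusted p = 0.0079). The KLE rise was lost without untreated replicate 1 (0.13) and was 0.02 with limma on TPM. VARS2 shares 22% of its exonic bases with GTF2H4 on the same strand.

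Over all 44 genes, KLE cells gave 12 called higher, 7 called lower and 25 not called, with values from -0.38 to 0.32 and a median of -0.02. Among all 13031 genes tested 25.6% rose and 25.2% fell, 50.8% in all. The cytosolic class gave 10 higher, 3 lower and 8 not called, with a median of 0.09. With library totals the KLE counts were 10 higher and 10 lower for all members and 8 higher and 4 lower for the cytosolic class. With upper-quartile factors they were 9 and 10, and 7 and 4. Limma on TPM gave 5 higher and 6 lower over all members and 4 and 3 for the cytosolic class, without calls of GARS1, RARS1, YARS1, IARS1, MARS1, TARS1, VARS2 and EARS2.

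The accessory genes of mitochondrial charging went separate ways. GATC, a subunit of the glutaminyl-tRNA amidotransferase, stood at 90.7, 82.2 and 92.9 CPM without and 98.4, 104 and 102 CPM with copper in Ishikawa cells and rose (log2 0.26 ± 0.06, adjusted p = 0.00109). KLE cells showed a fall of GATC, from 69.5, 72.7 and 78.4 to 63.9, 65.6 and 59.5 CPM (log2 -0.22 ± 0.05, adjusted p = 4.50e-04). The Ishikawa value was 0.11 and not called with library totals, and GATC shares 39.1% of its exonic bases with SRSF9 on the opposite strand. The partner subunits GATB and QRSL1 were called in neither line, at -0.20 and 0.01 in Ishikawa cells and -0.22 and -0.04 in KLE cells. MTFMT, the formyltransferase, fell in Ishikawa cells from 22.8, 21.6 and 22.7 to 15.4, 16.2 and 16.3 CPM (log2 -0.43 ± 0.09, adjusted p = 4.88e-04). It was not called in KLE cells (-0.05).

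Selenocysteine is made on its own tRNA: SARS1 attaches serine, PSTK phosphorylates it and SEPSECS converts it to selenocysteine. SEPSECS had the largest fall of the 44 genes in both lines. In Ishikawa cells it went from 17.6, 17.7 and 18.8 to 8.23, 9.76 and 9.15 CPM, a fall to 0.522 of its level (log2 -0.94 ± 0.11, adjusted p = 1.46e-06). In KLE cells it went from 16.6, 16.5 and 16.7 to 12.4, 13.3 and 12.7 CPM, to 0.771 of its level (log2 -0.38 ± 0.09, adjusted p = 9.43e-04). No treated library reached an untreated one in either line. PSTK, at 2.31, 2.03 and 2.53 CPM, rose to 3.52, 2.82 and 3.81 CPM in Ishikawa cells (log2 0.63 ± 0.22, adjusted p = 0.0198). Its fewest counts in a library were 35, and the call was lost without untreated replicate 2, treated replicate 1 or treated replicate 3 (0.52 to 0.59). In KLE cells PSTK was not called, at 4.37, 3.82 and 3.22 against 5.04, 4.25 and 4.27 CPM. SARS1, the first step, rose in Ishikawa cells, so the 3 steps did not share a direction there.

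Enzymes of the same amino acid could be set side by side for 14 amino acids that have a separate cytosolic and mitochondrial gene. In untreated Ishikawa cells the cytosolic transcript was 1.09 (CARS1 over CARS2) to 31.1 times (MARS1 over MARS2) the mitochondrial one in mean TPM. With copper the mean log2 ratio moved towards the cytosolic enzyme in 12 of 14 pairs, with a median change of 0.56. The histidyl pair changed most: its log2 ratio was 1.96, 1.71 and 1.68 in untreated and 2.73, 2.97 and 3.00 in treated Ishikawa libraries, a change of 1.11. The ratio moved the other way in the alanyl pair (-0.26), where AARS1 fell by 0.59 and AARS2 by 0.35 on the log2 scale, and in the arginyl pair (-0.25), where RARS2 rose by 0.84 and RARS1 by 0.60. In KLE cells 11 pairs moved towards the cytosolic enzyme and 3 away from it, with a median change of 0.10. These counts use the sign of the mean change alone, which was as small as 0.004 for the leucyl pair. Treated and untreated KLE libraries did not overlap in the histidyl, isoleucyl, threonyl and alanyl pairs, and overlapped in all others. The alanyl pair, at 3.44, 3.44 and 3.35 without and 3.17, 3.27 and 3.17 with copper, was again among those that moved away. These pair values are given without a test.

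**Figure D4:**
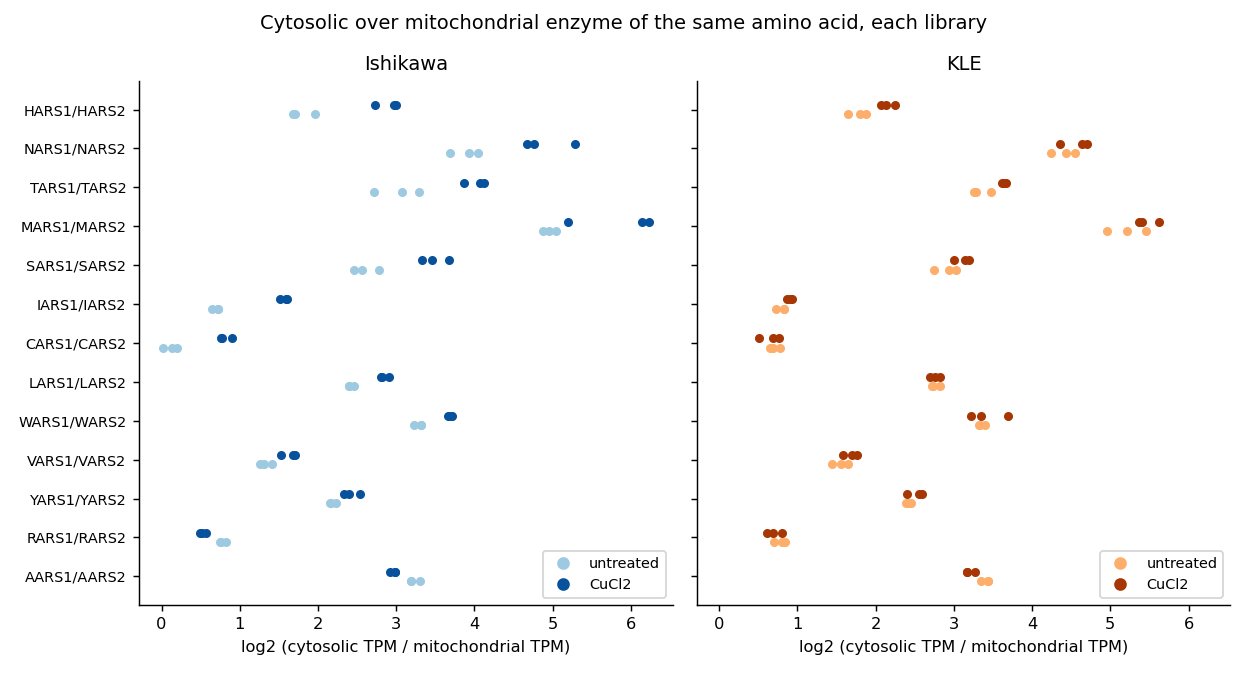
Log2 ratio of cytosolic to mitochondrial TPM (x axis) for 13 of the 14 amino acids in each library, untreated (light) and with copper (dark), in Ishikawa (left) and KLE cells (right). In Ishikawa cells the dark points of most pairs lie right of the light ones, and those of the arginyl and alanyl pairs lie left of them.

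The lines were then compared directly, through the difference of their copper responses (KLE minus Ishikawa) in a fit of all 12 libraries. It was called for 32 of the 44 genes, 18 higher and 14 lower in KLE cells, against 24.6% and 20.8% (45.4% in all) of 13663 genes tested. This fit has scaling factors of its own, so a difference is not exactly the KLE value minus the Ishikawa value given above. For GARS1 it was -0.64, beside 0.13 in KLE and 0.83 in Ishikawa cells. Fitted in all 12 libraries, the Ishikawa copper response gave 16 members higher and 23 lower, in place of 18 and 18. For cytosolic synthetases the response in KLE cells was lower for 12 genes and higher for 7, and for mitochondrial synthetases it was higher for 9 and lower for 1, RARS2 (-0.57 ± 0.08, adjusted p = 4.57e-06). The cytosolic count depended on the scaling: it was 13 lower and 3 higher with RLE factors and with DESeq2, 12 and 3 with no count filter, 10 and 8 under library totals, and 7 and 5 by limma on TPM. Over all members RLE factors gave 14 higher and 15 lower, and over all genes 2942 higher and 3196 lower in place of 3358 and 2848. The mitochondrial count stayed at 9 or 10 higher and 1 lower in these alternatives. The largest gaps on the lower side were CARS1 (-0.69 ± 0.08), GARS1 (-0.64 ± 0.06), RARS2, SARS1 (-0.56 ± 0.06) and WARS1 (-0.52 ± 0.07), all genes that rose in Ishikawa cells. On the higher side they included SEPSECS (0.62 ± 0.13), NARS2 (0.61 ± 0.13), VARS2 (0.57 ± 0.12) and HARS2 (0.56 ± 0.12), all genes that fell in Ishikawa cells. FARSB, LARS1, WARS2, MARS2, PARS2 and PSTK, called in Ishikawa cells, had no called difference, with values from -0.32 for PSTK to 0.56 for PARS2.

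Taken gene by gene, 10 members rose in both lines (22.7%) and 6 fell in both (13.6%), beside 18.9% and 19.3% of the 12806 genes tested in both. The 10 were EPRS1, FARSB, GARS1, HARS1, IARS1, MARS1, RARS1, TARS1, YARS1 and, as the only mitochondrial enzyme, RARS2. The 6 were AARS1, QARS1, TARS3, EARS2, TARS2 and SEPSECS. EPRS1, HARS1, RARS2, AARS1, QARS1, TARS3, TARS2 and SEPSECS kept both calls in every alternative run, whereas FARSB, GARS1, IARS1, MARS1, RARS1, TARS1, YARS1 and EARS2 lost a call in 1 line or the other in at least 1 alternative. VARS1, VARS2 and GATC were called in opposite directions, and for all 3 the difference itself passed the test (0.45 ± 0.09, 0.57 ± 0.12 and -0.43 ± 0.08). Some of the smaller differences depended on the scaling. Those of KARS1 (0.18), QARS1 (0.17), FARSA (0.24) and TARS3 (0.31) were lost with all 12 libraries kept under RLE factors (0.13, 0.13, 0.19 and 0.27), no count filter and DESeq2. The median difference of all genes was then -0.01, -0.04 and -0.01 in place of 0.03. All 4 were also lost without any treated Ishikawa replicate, untreated KLE replicate 1 or treated KLE replicate 3, with values of 0.11 to 0.30, and the median of all genes was -0.01 in each of these fits too. FARSA was lost as well without untreated Ishikawa replicate 2 (0.14), untreated KLE replicate 2 or 3 or treated KLE replicate 2, and TARS3 without untreated Ishikawa replicate 1 or 3, untreated KLE replicate 2 or treated KLE replicate 2, with median differences of all genes of 0.03 to 0.04. Those of HARS1 and YARS1 (-0.19 and -0.16) were lost with library totals (-0.13 and -0.10) and without untreated KLE replicate 3 (-0.17 and -0.14), and that of EARS2 (0.30) without treated Ishikawa replicate 2 (0.23).

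Before copper, a part of the cytosolic enzymes was already higher in KLE than in Ishikawa cells. Of the 44 genes 16 were higher and 5 lower in untreated KLE cells, against 24.5% and 25.6% of all 13663 genes tested, 50% in all. Of the 21 cytosolic synthetases 13 were higher, 1 was lower and 7 were not called, with a median of 0.12, while the mitochondrial class gave 2 higher, 2 lower and 13 not called, with a median of -0.01. The cytosolic count fell to 8 higher with limma on TPM and to 8 with the replicate number as a block. The block fit compares the lines at the level of replicate 1 of each line, not at their group means. This comparison, the Ishikawa copper response and the difference of the responses share the untreated Ishikawa libraries, so their values are not independent of each other. CARS1 was 1.61-fold and TARS1 1.4-fold higher in untreated KLE cells (log2 0.69 ± 0.06 and 0.49 ± 0.04, adjusted p = 8.84e-10 and 5.70e-10). PSTK (0.74 ± 0.20), WARS2 (0.43 ± 0.08) and WARS1 (0.39 ± 0.05) were also higher, WARS2 with 15.3, 16 and 15.4 CPM in untreated Ishikawa and 21.6, 21 and 20.5 CPM in untreated KLE cells.

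The 5 genes lower in untreated KLE cells were MTFMT (-0.31 ± 0.08), GATC (-0.26 ± 0.06), QARS1 (-0.26 ± 0.04), LARS2 (-0.23 ± 0.05) and NARS2 (-0.23 ± 0.09). MTFMT had 16.2, 19.3 and 18.3 CPM in untreated KLE cells and LARS2 had 60.2, 61.6 and 64.1 CPM, below every untreated Ishikawa library for both genes. The NARS2 value rested on few libraries: it was -0.20 to -0.23 and not called without untreated Ishikawa replicate 2 or 3 or any untreated KLE replicate. RARS2 was higher in untreated KLE cells (0.17 ± 0.06) but not without untreated Ishikawa replicate 2 (0.09) or untreated KLE replicate 1 (0.15). The small values of IARS1 (0.09) and LARS1 (0.11) were lost without untreated KLE replicate 1 (0.08 and 0.09), and that of IARS1 also without untreated Ishikawa replicate 1 or 2 or untreated KLE replicate 3 (0.07 to 0.09).

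A list of 17 genes covered the sensing of uncharged tRNA, the initiation factor eIF2 with its kinases, and ATF4 with genes downstream of it. In Ishikawa cells 11 rose, 5 fell and 1 was not called, with a median log2 fold change of 0.39 against -0.01 for all genes. Of all genes tested in this line 33.8% rose and 35.3% fell. In KLE cells 3 rose, 5 fell and 9 were not called, with a median of -0.03 (all genes 0.00, with 25.6% rising and 25.2% falling). SESN2, a stress-induced inhibitor of mTORC1, stood at 12.2, 15.5 and 10.1 TPM in untreated and 59.3, 65.9 and 61 TPM in treated Ishikawa cells. Its rise was 2.47 ± 0.11 in Ishikawa and 0.62 ± 0.07 in KLE cells on the log2 scale, and the difference passed the test (-1.79 ± 0.16, adjusted p = 5.23e-07). ASNS, asparagine synthetase and a standard ATF4 target, went from 245, 259 and 272 to 384, 413 and 372 TPM in Ishikawa cells, a rise of 0.81 ± 0.05. In KLE cells its libraries overlapped, at 353, 320.3 and 382 against 279, 369 and 336 TPM, and it was not called (-0.03).

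ATF4 itself rose by 0.33 ± 0.05 in Ishikawa cells and was not called in KLE cells (-0.04). In TPM the Ishikawa change was smaller, with a mean ATF4 level of 715 without and 798 with copper. PSAT1, also called higher there (0.21), had mean levels of 325 and 330 TPM. DDIT3 and TRIB3, stress-response genes downstream of ATF4, rose by 1.27 and 1.34 in Ishikawa cells and were not called in KLE cells (0.15 and 0.11). Before copper, 5 of the 17 genes were higher in KLE than in Ishikawa cells and 8 lower, beside 24.5% and 25.6% of all genes. The 5 were CHAC1 (1.656), TRIB3 (1.355), SESN2 (0.608), ASNS (0.514) and ATF4 (0.282), while DDIT3 was among the 8 (-0.281). Mean TRIB3 was 78.4 TPM in untreated KLE and 72.6 TPM in treated Ishikawa cells. In the same order CHAC1 had 35.7 and 18.3 TPM, ATF4 839 and 798, ASNS 352 and 390, and SESN2 18.6 and 62.1 TPM. DDIT3 had 32.2 and 86.2 TPM. Of the upstream kinases that phosphorylate the initiation factor eIF2, EIF2AK4 (GCN2, the sensor of uncharged tRNA) fell by 0.19 on the log2 scale in Ishikawa cells and EIF2AK3 (PERK) rose by 0.57. EIF2AK1 and EIF2AK2 fell in both lines. PHGDH, the first enzyme of serine synthesis, fell in both lines (-0.44 and -0.60) although it is also counted as an ATF4 target.

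The steps around charging moved in a mixed way. A mixed list of 10 genes covered proofreading (AARSD1, DTD1 and DTD2), tRNA 3′ end processing and the CCA end (ELAC2, SSB and TRNT1), tRNA export (XPOT), ribosome quality control (NEMF and ANKZF1) and PRXL2A. In Ishikawa cells 3 rose and 5 fell (median -0.11), and in KLE cells 3 rose and 3 fell (median 0.05). The shares of all genes that rose and fell were 33.8% and 35.3% in Ishikawa and 25.6% and 25.2% in KLE cells. The Ishikawa falls were those of DTD1 and DTD2 (-0.65 and -0.51), of PRXL2A and of the quality control genes NEMF and ANKZF1 (-0.17 and -0.34). AARSD1, which removes serine wrongly joined to the tRNA for alanine and so clears an error of AARS1, rose where AARS1 fell. Its level was 43.1, 39.7 and 35.2 TPM in untreated and 63.1, 64 and 60.5 TPM in treated Ishikawa cells, with rises of 0.84 ± 0.08 in Ishikawa and 0.35 ± 0.08 in KLE cells. PRXL2A, a peroxiredoxin-like redox protein, went from 60.7, 60.6 and 65.1 to 28.4, 29.1 and 30.4 TPM in Ishikawa cells and fell in both lines (-1.08 and -0.45). TRNT1, which adds the CCA end to both cytosolic and mitochondrial tRNAs, rose by 0.41 in Ishikawa cells and was not called in KLE cells (0.08).

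Downstream of charging, the cytosolic elongation factors EEF1A1, EEF1A2, EEF1B2, EEF1D, EEF1G and EEF2 changed little where tested. Of 5 tested in Ishikawa cells 4 were called higher, EEF1A1, EEF1B2, EEF1D and EEF1G, by 0.17 to 0.19 on the log2 scale, beside 33.8% of all genes. With library totals their values were 0.02 to 0.03 and none of the 4 was called, and the mean level of EEF1A1 was 11530 TPM without and 11490 TPM with copper. In KLE cells 2 of 6 were called higher and 1 lower, beside 25.6% and 25.2% of all genes. Library totals left 1 of these 6 called lower and no other. Of the 11 mitochondrial translation factors 5 were called higher in Ishikawa cells, 1 lower and 5 not, with a median of 0.10, beside 33.8% and 35.3% of all genes and a median of -0.36 for the mitochondrial synthetases. The 2 groups of genes were not tested against each other. With library totals the count was 2 higher and 3 lower, and TUFM, the elongation factor that carries charged tRNA in mitochondria, went from 0.12 to -0.03. MTRF1L, a mitochondrial release factor, went from 20, 20.9 and 21.7 to 34.3, 36.1 and 36.3 TPM in Ishikawa cells (log2 0.90 ± 0.07) and GFM1, a mitochondrial elongation factor, from 67.4, 72.3 and 74.8 to 94.4, 93.8 and 85.7 TPM (0.47 ± 0.05). MTIF2, the mitochondrial initiation factor that takes up the initiator tRNA formylated by MTFMT, fell by 0.31 on the log2 scale. In KLE cells GFM1 and MTRFR rose (0.28 and 0.14, the latter not with library totals) and the other 9 were not called.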

How the data were processed

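Per the labels' protocols, libraries were made from oligo(dT)-selected mRNA of TRIzol extracts and sequenced on an Illumina instrument. The submitters' processing notes list R 4.2.2, DESeq2, RSEM, HISAT2 2.1.0, Bowtie2 2.2.8 and fastp 0.18.0, and the build GRCh38.p14. Their roles, the annotation release and the strand setting were not given in the sources used here. Of the deposited files, the authors' table of all genes holds TPM and expected counts, with 12.8 to 14.1% of a library's expected counts not whole. The deposited whole counts of each line are these values rounded, with differences of at most 0.5, and were used for all tests. Tables named for FPKM hold the same TPM per the file headers and were not used. Of the 20332 genes, 617 have no symbol.

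Members were the genes whose deposited pathway annotation holds the KEGG term for aminoacyl-tRNA biosynthesis, and their classes follow known roles. The members and the gene lists were chosen with earlier results of these data known. Differential expression was tested on the whole table with edgeR 4.0.16 in R 4.3.3, by a robust quasi-likelihood fit after filterByExpr and TMM scaling, with two-sided p-values adjusted after Benjamini and Hochberg and called below 0.05, in the 6 libraries of each line for copper and in all 12 for the other comparisons. All 44 members passed the count filter in each comparison. The SE of a log2 fold change is its absolute value over the square root of F. Values by library are given for called members with a mean of at least 1 CPM: in each line the 6 that rose most and the 6 that fell most, and up to 5 per direction in the other comparisons. IARS2 and the other genes shown by library were chosen after their values were seen. Counts, medians and sums cover all 44 members, of which 2 are not reported singly here. Class sums and pair ratios use the authors' TPM. Gene positions and overlaps come from GENCODE release 29 (GRCh38). In simulated counts with 200 genes changed, edgeR recovered 71, 73, 63 and 73% of genes changed 1.5-fold (Ishikawa, KLE, difference, untreated lines) and 39, 64, 19 and 43% of those changed 1.25-fold, and 5.17, 5.52, 5.75 and 6.45% of calls were false. In the data themselves 45.4 to 69.1% of genes were called, a far larger share than was changed here. These rates therefore need not hold for the fits reported. Alternatives were other scalings, count filters and samples in the fit, DESeq2 1.42.0, limma 3.58.1 on log2(TPM + 1), a block for the replicate number and leaving out each library.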

Additional observations from a re-analysis of the deposited data

Results flagged for a closer look

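The copper response differed between the lines, by the interaction term of the edgeR fit of all 12 libraries (adjusted p under 0.05), for 32 of the 44 genes, beside 45.4% of all genes tested. Values are log2 fold changes in KLE cells minus those in Ishikawa cells within that fit. They differ slightly from a subtraction of the values fitted for each line alone. Of the 32 differences 30 are given singly, and no explanation was tested.

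Among the cytosolic synthetases the difference was negative for CARS1 (-0.69), GARS1 (-0.64), SARS1 (-0.56), WARS1 (-0.52), RARS1 (-0.40), NARS1 (-0.34), TARS1 (-0.31), MARS1 (-0.30), EPRS1 (-0.23), IARS1 (-0.20), HARS1 (-0.19) and YARS1 (-0.16). It was positive for VARS1 (0.45), AARS1 (0.40), TARS3 (0.31), FARSA (0.24), KARS1 (0.18) and QARS1 (0.17). Among the mitochondrial synthetases it was positive for NARS2 (0.61), VARS2 (0.57), HARS2 (0.56), IARS2 (0.56), TARS2 (0.48), AARS2 (0.36), LARS2 (0.36) and EARS2 (0.30) and negative for RARS2 (-0.57). Of the other genes it was positive for SEPSECS (0.62) and MTFMT (0.43) and negative for GATC (-0.43).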

How the results depend on the processing

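Of the members called, 26 of 36 in Ishikawa cells, 11 of 19 in KLE cells, 22 of 32 for the difference and 13 of 21 for the untreated lines kept their call and direction in all of the 15, 15, 20 and 21 alternatives run. For the untreated lines these include the replicate block, which compares the lines at the level of replicate 1. Limma on log2(TPM + 1) called 11 members higher and 22 lower in Ishikawa cells, 5 and 6 in KLE cells, 16 and 9 for the difference, and 10 and 4 in untreated KLE cells. It turned FARSB to -0.012 and LARS1 to -0.047 in Ishikawa cells, and library totals turned LARS1 to -0.032. Counts by class were tried under the alternatives after seeing the data: the mitochondrial synthetases called higher in Ishikawa cells were 1, not 2, with upper-quartile factors, library totals, no count filter, DESeq2, limma and the fit of all 12 libraries, and 1 to 2 when a library was left out. The causes were not tested.

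Whether the labels' replicate numbers pair the samples could not be decided. Deviations of same-numbered untreated and treated libraries correlated at 0.05, 0.17 and 0.08 in Ishikawa and -0.06, -0.04 and -0.08 in KLE cells. Differently numbered libraries correlated at -0.15 to 0.08 in Ishikawa and -0.01 to 0.07 in KLE cells, and not every library correlated best with its own number. Correlations this weak, with 3 libraries per group, can neither show nor exclude pairing. With the replicate number as a block, 10 members instead of 16 were higher in untreated KLE cells and 4555 instead of 6838 genes were called there. That fit, however, compares the untreated lines at the level of replicate 1 of each line, not at their group means. Its lower counts therefore cannot be read as the effect of blocking alone. In that comparison EPRS1, IARS1, LARS1, MARS1, NARS2, RARS1 and RARS2 were not called. The block also ended the calls of TARS1 in KLE cells and of TARS3 for the difference, added a call of MARS2 for the difference, and changed no other member's call. Genes with few counts, such as PARS2 and PSTK, limit the precision of their folds.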
